A study of Mus musculus with 6 samples.

Results

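Immediate early genes are the genes that a cell transcribes within minutes of a stimulus, before any new protein has been made. The 10 genes described here, Fos, Fosb, Jun, Junb, Egr1, Atf3, Nr4a1, Dusp1, Ier2 and Ier3, were taken by name from 38887 gene identifiers, and all 10 were among the 12259 genes that passed the filter on low counts. They were measured by RNA sequencing in neutrophils from mouse bone marrow, in 3 groups of 2 libraries. The groups were naive mice without a tumor, mice 1 week after LL2 cells were given (one-week LL2) and mice 3 weeks after (three-week LL2), where LL2 is the Lewis lung carcinoma cell line, carrying luciferase and given intravenously to C57BL/6 mice. The design asks how the neutrophils of the marrow differ with the stage of the tumor.

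No transgene, gene deletion or drug distinguished the groups, and the study's methods give the age and sex of purchased mice only for the stock as a whole, as young adults, without tying them to a library. The titles number the replicates without stating that each came from a separate animal. The p-values therefore set differences against the spread between these libraries, which may be technical. The neutrophils were captured by their surface Ly6G with magnetic beads, to a labelled purity above 95%, after the marrow had been flushed in cold buffer. Between flush and capture, the study's methods also describe a lysis of red cells at room temperature and labelling with antibody and beads. The time that each sample spent between death of the mouse and lysis of the cells was not given in the sources used here. The libraries held 11994158 to 14127919 counts, and a gene with 3 counts had a level of 0.2 to 0.246 CPM, the unit of counts per library total used throughout.

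Most immediate early genes code for transcription factors. Fos and Fosb proteins pair with Jun and Junb proteins to form AP-1, a dimer that binds DNA, and Atf3 belongs to the same leucine zipper (bZIP) class. Egr1 is a zinc finger factor and Nr4a1 (Nur77) an orphan nuclear receptor. Dusp1 is a phosphatase that switches off MAP kinases, the enzymes that turn many of these genes on, while Ier2 and Ier3 are small stress- and growth-induced proteins. Genes of this kind are well known to be induced in living tissue and also when tissue is dissociated and cells are sorted.

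The marker genes describe cells of the neutrophil line with traces of other cells. The summed level of 15 neutrophil markers was between 289700 and 354700 CPM, and S100a8, a calcium-binding protein of neutrophils, alone gave 147300 to 228700 CPM. The transcript of Ly6g itself, the antigen used for capture, was near the limit of detection, at 0.491 to 2.14 CPM. The 11 B-lineage markers summed to 52.0 to 67.7 CPM in the naive and one-week libraries and to 14.3 and 16.3 CPM in the three-week libraries. The 14 monocyte and macrophage markers summed to 402 to 610 CPM, with both extremes in the three-week group. The 10 erythroid markers summed to 578 CPM in three-week replicate 2 and to 1212 to 1519 CPM in the other libraries. The 10 markers of T and NK cells summed to at most 29.0 CPM, with Trac, which codes for the constant part of the T cell receptor alpha chain, at 0 in every library.

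All 10 immediate early genes were detected well above the counting limit. Exon lengths merged all annotated transcripts of a gene, whether or not the cells made them, so levels per kilobase and their order depend on that annotation. Per kilobase of exon, which allows levels of different genes to be compared roughly, the most abundant in naive neutrophils was Dusp1, at 588 ± 160 CPM per kilobase (mean ± SD, n = 2). Fos followed at 360 ± 48.6, Ier2 at 289 ± 25.0 and Junb at 229 ± 15.1 CPM per kilobase. Ier3, at a mean of 210 with libraries overlapping those of Junb, Jun at 117 and Egr1 at 71.9 CPM per kilobase came next. Nr4a1, at 19.3 CPM per kilobase, and the overlapping Atf3 and Fosb, at 6.90 and 5.88, stood far below. Averaged over the libraries, Dusp1 ranked 92, Fos 138, Ier2 162, Ier3 180, Junb 218 and Jun 325 among 12101 tested genes with a known exon length.

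The order of the abundant members was not the same in the 3 groups. In one-week LL2 neutrophils Fos stood first at 419 CPM per kilobase, followed by Ier2 at 345, Dusp1 at 316 and Ier3 at 210. In three-week LL2 neutrophils Dusp1 stood first again at 716 ± 236 (SD, n = 2), and the means of Ier3, Fos, Ier2, Junb and Jun ran from 396 down to 252 CPM per kilobase with each neighbour overlapping the next. Fosb and Atf3 were the lowest 2 members in each group. The 10 genes together took 0.403% to 0.638% of all counts, and Dusp1 made up 26.3% to 43.9% of that share.

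**Figure D1:**
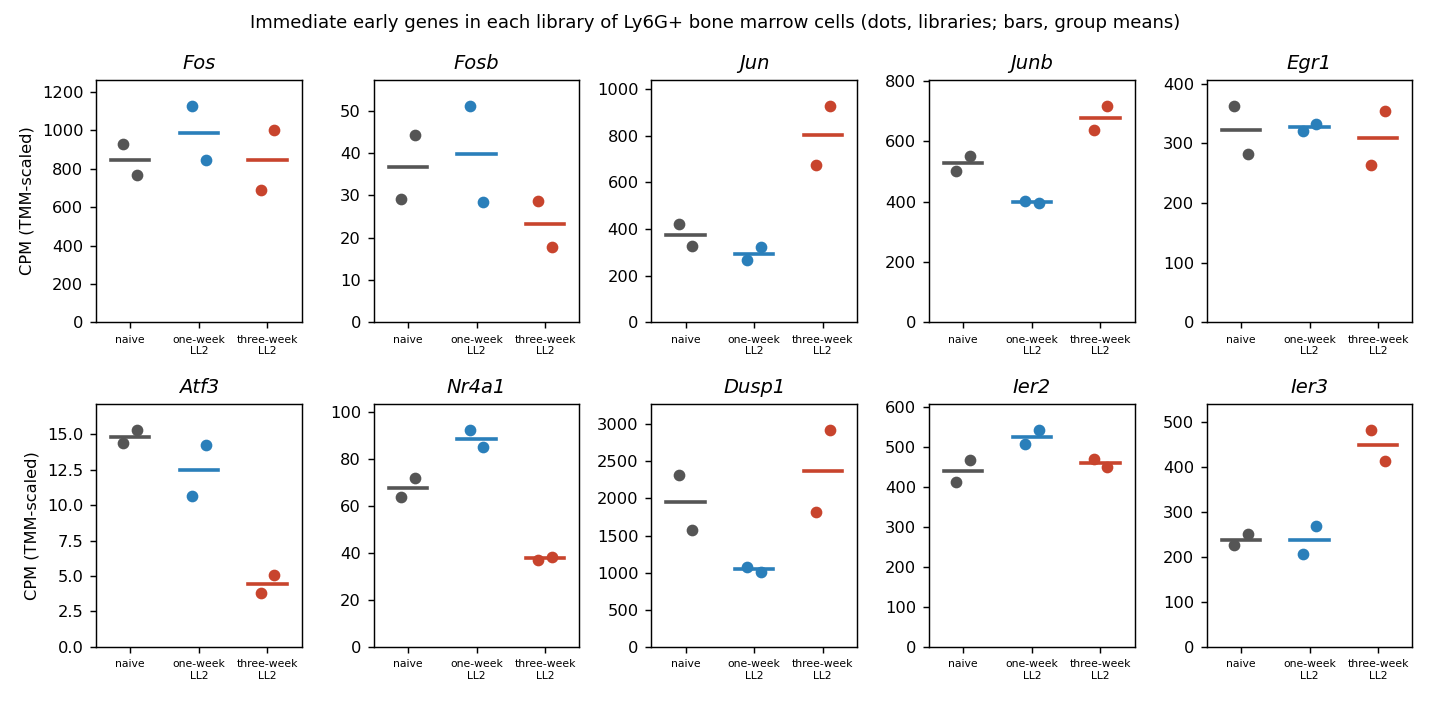
Level of each immediate early gene in CPM scaled by TMM (vertical axis, starting at 0) in naive, one-week and three-week LL2 neutrophils; dots are libraries and horizontal bars are means of 2. Jun and Ier3 sit higher in both three-week libraries than in all the others, Atf3 and Nr4a1 sit lower in both, and the Fos and Egr1 libraries of the 3 groups overlap.

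Bases outside annotated exons, taken from the 200 before each RefSeq gene start (GRCm38.p6), are shown for 5 members that differ in how they moved, namely Jun and Ier3 (higher at 3 weeks), Nr4a1 (lower at 3 weeks), Dusp1 (lower at 1 week) and Fos (not called in any comparison). The stretch ends at the base before the start for Jun, Nr4a1 and Fos, whereas the last 47 bases before the start are left out for Dusp1 and the last 29 for Ier3, since they lie in exons of the gene annotation. Capitals mark TGACG, the core of the cAMP response element, or its complement CGTCA, the full element TGACGTCA in Dusp1, and TGACATCA in Jun.
Jun, chr4:95052223-95052422, minus strand: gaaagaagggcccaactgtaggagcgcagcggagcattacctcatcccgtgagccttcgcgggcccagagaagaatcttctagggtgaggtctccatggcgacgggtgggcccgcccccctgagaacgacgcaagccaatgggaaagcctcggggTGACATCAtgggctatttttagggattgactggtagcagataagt
Ier3, chr17:35821513-35821683, plus strand: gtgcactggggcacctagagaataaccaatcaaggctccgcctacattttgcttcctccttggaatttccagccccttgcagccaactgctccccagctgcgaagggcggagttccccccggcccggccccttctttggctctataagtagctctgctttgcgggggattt
Nr4a1, chr15:101266646-101266845, plus strand: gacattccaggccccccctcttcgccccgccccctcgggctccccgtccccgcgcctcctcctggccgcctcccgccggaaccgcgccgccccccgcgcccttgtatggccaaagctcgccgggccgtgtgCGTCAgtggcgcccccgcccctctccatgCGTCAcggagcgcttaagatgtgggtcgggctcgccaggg
Dusp1, chr17:26508520-26508672, minus strand: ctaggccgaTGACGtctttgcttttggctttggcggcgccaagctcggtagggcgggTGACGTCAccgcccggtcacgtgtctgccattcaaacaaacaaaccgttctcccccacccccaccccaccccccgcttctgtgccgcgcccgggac
Fos, chr12:85473690-85473889, plus strand: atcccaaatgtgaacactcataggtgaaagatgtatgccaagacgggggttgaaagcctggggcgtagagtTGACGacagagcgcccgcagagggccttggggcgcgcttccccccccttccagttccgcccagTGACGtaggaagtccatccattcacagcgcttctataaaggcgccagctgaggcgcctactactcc

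The RefSeq promoter windows, each of 250 bases before and 50 after a start, were searched on both strands, and 8 of the 10 members had one. Egr1 and Ier2 were not in that table. TGACG was found in 6 of the 8 windows (Atf3, Dusp1, Fos, Fosb, Junb and Nr4a1) and in 20.8% of all 32851 windows. The longer TGACGT, which contains it, was in 3 (Atf3, Dusp1 and Fos) and in 7.51% of all windows, and TGACGTCA was in Dusp1 alone, at 143 to 136 bases before the start, and in 1.79% of all. TGACATCA, looked for after the Jun sequence had been read, was in Jun alone among the members, at 45 to 38 bases before the start, and in 3.62% of all windows. The Egr motif GCGNGGGCG was in Fosb and Nr4a1 and in 5.55% of all windows, and TATAAA was in Fos and Junb and in 13.6%. The AP-1 motif TGANTCA (7.81% of all windows) and the CArG box bound by serum response factor (1.63%) were found in none of the 8. Sites farther than 250 bases before a start were not searched for, so this does not mean that the genes lack such sites. Both genes that were lower at 3 weeks, Atf3 and Nr4a1, had TGACG in their windows, as did Fos and Fosb, which were not called, and Junb, which was higher. These matches describe letters in a window and not bound sites.

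One-week LL2 neutrophils differed from naive ones in 2 of the 10 genes, Dusp1 and Junb, both lower. By edgeR's quasi-likelihood test with Benjamini-Hochberg adjustment at 0.05, 7.99% of all tested genes were called in this comparison, and 3.76% of all tested genes were called lower. None of the 10 was called higher, beside 4.23% of all genes (2, Nr4a1 and Ier2, at an unadjusted p under 0.05; 0 by DESeq2). The 2 libraries of each group did not overlap for 6 of the 10, beside 53.2% of all genes, so that count was close to the background. The median log2 fold change of the 10 was 0.01, as it was over all genes tested.

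Three-week LL2 neutrophils differed from naive ones in 5 of the 10 genes: Jun, Ier3 and Junb were higher and Atf3 and Nr4a1 lower. Of all tested genes 21.4% were called, 12.0% higher and 9.42% lower. Against one-week LL2 neutrophils 6 of the 10 were called, Jun, Dusp1, Ier3 and Junb higher and Atf3 and Nr4a1 lower, where 22.5% of all genes were called, 12.9% higher and 9.57% lower. The libraries did not overlap for 6 and 7 of the 10, beside 59.6% and 63.8% of all genes, and the median log2 fold changes of the 10 were 0.03 and -0.14, beside 0.03 and -0.02 over all genes. Scaling by library size alone, which shifted the median of all genes to -0.11 and -0.22 in these comparisons, turned the share of calls that were higher over all genes from 56.0% to 34.7% and from 57.5% to 28.6%, and gave 2 higher and 2 lower members against naive and 4 higher and 4 lower against 1 week. The 3 comparisons share libraries in pairs, so their counts do not stand for separate evidence. In bulk libraries fewer cells of a type and less RNA per cell cannot be told apart.

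**Figure D2:**
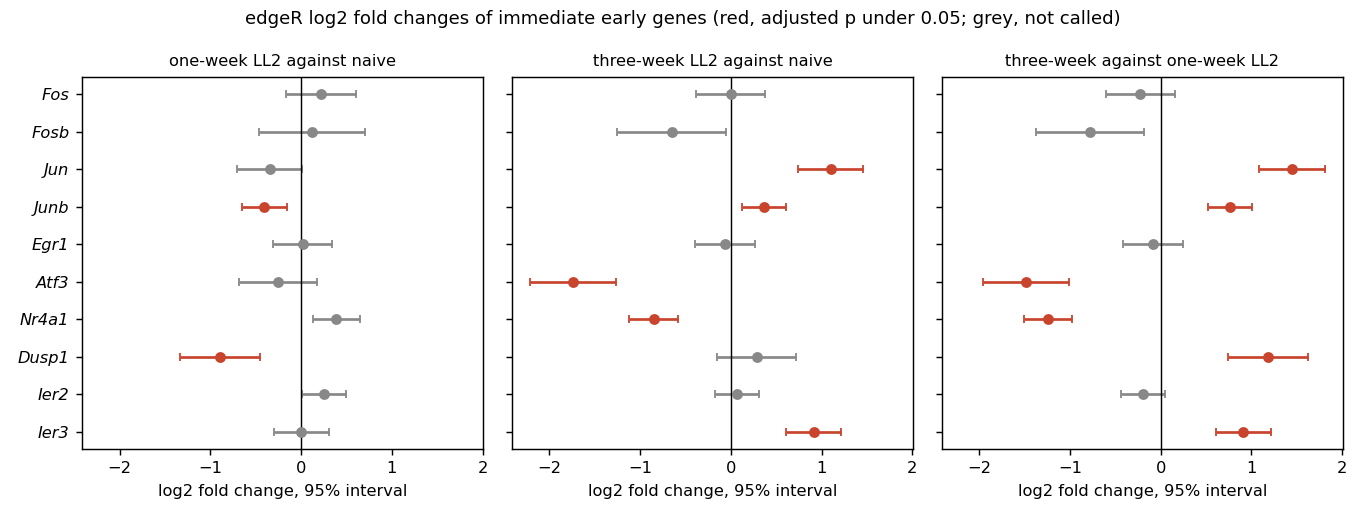
Fitted log2 fold changes (horizontal axis) of the 10 immediate early genes in the 3 comparisons, with bars for 95% intervals; red marks an adjusted p under 0.05 and grey the rest. Atf3 has the lowest value in both three-week comparisons, at -1.74 and -1.48, and Jun the highest, at 1.1 and 1.45.

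Among the AP-1 subunits, Jun and Junb were called and Fos and Fosb were not. Fos was at 928 and 767 CPM in the naive libraries, 1129 and 844 in the one-week libraries, and 687 and 1004 in the three-week libraries. The groups overlapped in all comparisons, with the lowest and the second highest value both in the three-week group. The log2 fold change of Fos at 3 weeks against naive was 0.00 (95% interval -0.39 to 0.38, adjusted p = 0.992), at 1 week against naive 0.22 (-0.17 to 0.60, adjusted p = 0.51), and at 3 weeks against 1 week -0.22 (-0.61 to 0.16, adjusted p = 0.402). The interval at 1 week leaves room for a level of up to 1.52-fold that of naive.

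Fosb, the Fos paralog, was far less abundant than Fos per kilobase. It was at 29.0 and 44.4 CPM in naive, 51.2 and 28.4 in one-week and 28.8 and 17.8 in three-week libraries. Both three-week libraries lay below both naive ones, by a narrow margin, and overlapped the one-week libraries. Its log2 fold change was -0.65 (SE 0.28, adjusted p = 0.114) at 3 weeks against naive and -0.78 (SE 0.28, adjusted p = 0.0596) against 1 week, and at 1 week against naive it was 0.12 (adjusted p = 0.841).

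Jun, the partner of Fos in the classical AP-1 dimer, was at 422 and 327 CPM in naive, 266 and 323 in one-week and 677 and 929 in three-week libraries. Both three-week libraries stood above the other 4. Jun rose 2.14-fold at 3 weeks against naive (log2 fold change 1.1, SE 0.17, adjusted p = 0.000449) and 2.73-fold against 1 week (1.45, SE 0.17, adjusted p = 5.76e-05). At 1 week both libraries were below both naive ones, by -0.35 on the log2 scale, which did not pass the test (adjusted p = 0.228). An antisense gene, Junos, shares 232 bases of exon with Jun and held at most 32 counts in any library.

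Junb, which pairs with the same Fos partners, was at 503 and 553 CPM in naive, 402 and 395 in one-week, and 639 and 719 in three-week libraries, with no overlap between any groups. Junb fell 1.32-fold at 1 week (log2 fold change -0.40, SE 0.11, adjusted p = 0.0445), rose 1.29-fold at 3 weeks against naive (0.36, SE 0.11, adjusted p = 0.0363) and rose 1.70-fold between 1 and 3 weeks (0.77, SE 0.11, adjusted p = 0.000355). The 2 changes against naive were near the threshold. The fall at 1 week was lost without any 1 of the naive or one-week libraries (log2 fold change -0.47, -0.34, -0.42 and -0.39, adjusted p = 0.106, 0.158, 0.192 and 0.22 without naive replicate 1, naive replicate 2, one-week replicate 1 and one-week replicate 2), and with library-size scaling alone (-0.35, adjusted p = 0.0758). The rise at 3 weeks against naive was lost with library-size scaling alone (log2 fold change 0.22, adjusted p = 0.184), with the one-week libraries left out of the model (adjusted p = 0.0949), and without naive replicate 1, one-week replicate 1, one-week replicate 2 or three-week replicate 2 (adjusted p = 0.228, 0.0909, 0.0878 and 0.205). Exons of Prdx2, on the opposite strand, share 173 bases with Junb, and whether the counting used strand was not given in the sources used here. Prdx2, which codes for an antioxidant enzyme abundant in red cells, held 325 to 722 counts a library.

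The makeup of the 2 AP-1 families was computed from CPM per kilobase of exon, and so depends on the same merged lengths. Jun made up 29.9% and 22.9% of Jun family transcripts (Jun, Junb and Jund) in naive, 24.4% and 27.9% in one-week and 35.1% and 41.0% in three-week libraries. Junb was the largest part in every library, at 43.9% to 53.6%, and the ratio of Jun to Junb was 0.605 and 0.427 in naive, 0.477 and 0.590 in one-week and 0.765 and 0.933 in three-week libraries. Jund, the family member that resting cells express, made up 15.1% to 25.0%. Its own level was called higher at 3 weeks than at 1 week, near the threshold (log2 fold change 0.36, adjusted p = 0.0449). Fos made up 88.4% to 93.5% of the Fos family (Fos, Fosb, Fosl1 and Fosl2) in every library. The ratio of Fos to Jun was 2.98 and 3.18 in naive libraries, 5.76 and 3.54 at 1 week and 1.38 and 1.46 at 3 weeks, with the 3 groups apart.

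**Figure D3:**
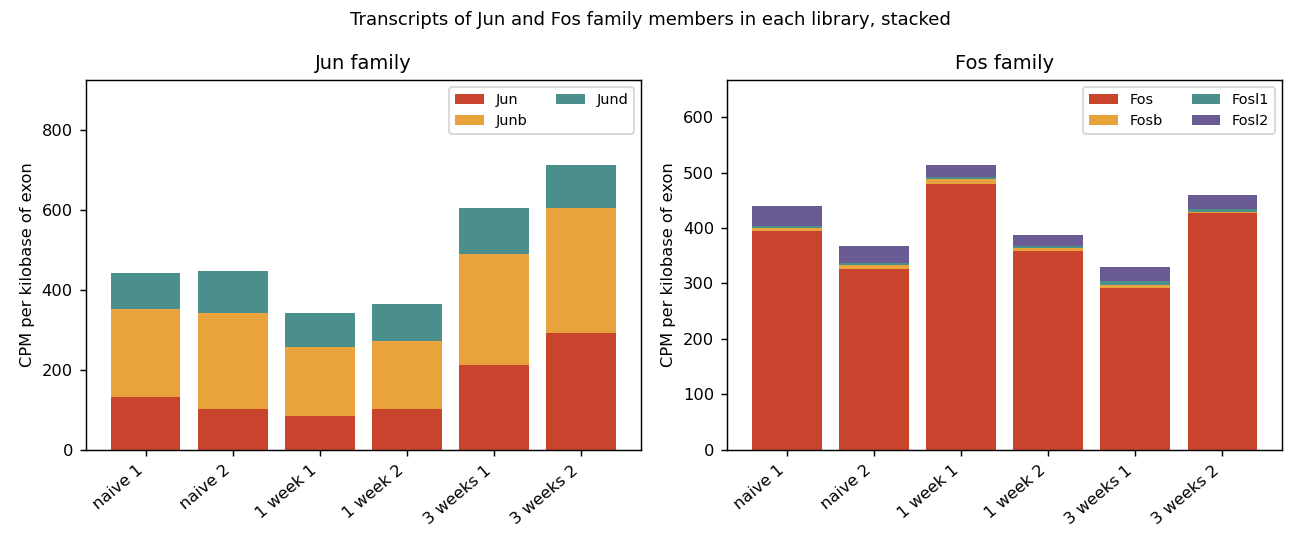
Stacked levels in CPM per kilobase of exon (vertical axis) of the Jun family and the Fos family in each of the 6 libraries. The Jun segment is largest in the three-week libraries, at 35.1% and 41.0% of its family, and Fos fills 88.4% to 93.5% of the other family throughout.

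Atf3, a bZIP factor that represses many stress-induced genes, was at 14.4 and 15.3 CPM in naive, 10.7 and 14.3 in one-week and 3.80 and 5.08 in three-week libraries, which rest on 182, 187, 160, 191, 49 and 66 counts. Both three-week libraries lay far below the other 4. Atf3 fell 3.34-fold at 3 weeks against naive (log2 fold change -1.74, SE 0.22, adjusted p = 0.000127) and 2.80-fold against 1 week (-1.48, SE 0.22, adjusted p = 0.000358). At 1 week both libraries were just below the naive ones, by -0.26 on the log2 scale (adjusted p = 0.485). Jun and Atf3 thus moved in opposite directions at 3 weeks, and the ratio of Jun to Atf3 per kilobase was 14.4 to 19.8 in the naive and one-week libraries and 120 and 124 in the three-week libraries.

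Nr4a1, which limits inflammatory gene expression in myeloid cells, was at 63.9 and 71.9 CPM in naive, 92.4 and 85.2 in one-week and 37.1 and 38.1 in three-week libraries. The 3 groups did not overlap, with one-week LL2 the highest and three-week LL2 the lowest. Nr4a1 fell 1.80-fold at 3 weeks against naive (log2 fold change -0.85, SE 0.12, adjusted p = 0.000357) and 2.36-fold against 1 week (-1.24, SE 0.12, adjusted p = 1.93e-05). Its difference at 1 week was 0.39 on the log2 scale (SE 0.12) and missed the threshold of edgeR's quasi-likelihood test (adjusted p = 0.067).

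Egr1 was at 363 and 282 CPM in naive, 321 and 332 in one-week and 263 and 354 in three-week libraries. The one-week values lay between the 2 naive ones and between the 2 three-week ones. Its log2 fold changes were 0.02 (95% interval -0.31 to 0.35, adjusted p = 0.964) at 1 week against naive, -0.06 (-0.39 to 0.26, adjusted p = 0.812) at 3 weeks against naive and -0.08 (-0.41 to 0.25, adjusted p = 0.739) at 3 weeks against 1 week. Fos and Egr1, often taken as the first readouts of an immediate early response, were thus not called in any comparison, while other members were called in both directions.

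Dusp1 was at 2321 and 1571 CPM in naive, 1080 and 1009 in one-week and 1818 and 2924 in three-week libraries. The one-week libraries were the lowest 2 and close to each other, while the naive and three-week libraries overlapped and each spread widely. Dusp1 fell 1.86-fold at 1 week against naive (log2 fold change -0.90, SE 0.20, adjusted p = 0.0183) and was 2.27-fold higher at 3 weeks than at 1 week (1.18, SE 0.21, adjusted p = 0.00113). The fall at 1 week was lost by DESeq2 (adjusted p = 0.102) and without naive replicate 1, one-week replicate 1 or one-week replicate 2 (log2 fold change -0.59, -0.95 and -0.85, adjusted p = 0.209, 0.0881 and 0.11). Between three-week and naive libraries the log2 fold change was 0.29 (95% interval -0.15 to 0.72, adjusted p = 0.356). That value rested on which three-week library was used, being 0.60 without replicate 1 (adjusted p = 0.0308) and -0.09 without replicate 2 (adjusted p = 0.804).

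Ier2, a nuclear protein of uncertain biochemical role, was at 413 and 466 CPM in naive, 507 and 542 in one-week and 469 and 449 in three-week libraries. The one-week libraries were the highest 2 and did not overlap the others. The log2 fold changes were 0.26 (SE 0.11, adjusted p = 0.19) at 1 week against naive, 0.06 (95% interval -0.18 to 0.31, adjusted p = 0.743) at 3 weeks against naive and -0.19 (adjusted p = 0.244) at 3 weeks against 1 week.

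Ier3, a stress-induced protein with a role in cell survival, was at 225 and 250 CPM in naive, 206 and 269 in one-week and 482 and 413 in three-week libraries. The 2 three-week values were above all the others. Ier3 rose 1.88-fold at 3 weeks against naive (log2 fold change 0.91, SE 0.14, adjusted p = 0.00051) and 1.88-fold against 1 week (0.91, SE 0.14, adjusted p = 0.000472). The log2 fold change at 1 week was 0.00 (95% interval -0.30 to 0.30, adjusted p = 0.998), with the 2 naive libraries inside the range of the one-week ones.

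The calls of Jun, Atf3, Nr4a1 and Ier3 at 3 weeks against naive, and all 6 calls at 3 weeks against 1 week, held in each of the 13 alternative settings. The call of Junb at 1 week held in 7 of 13, that of Dusp1 at 1 week in 9 of 13, and that of Junb at 3 weeks against naive in 7 of 13.

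The spread between replicates was set beside that of other genes of similar abundance. Over the 7 members with a mean level of 100 CPM or more, the median absolute difference between replicates was 0.28 (naive), 0.10 (one-week) and 0.43 (three-week) on the log2 scale. Over all 1270 tested genes at that level it was 0.13, 0.09 and 0.12. Fos, Jun, Egr1 and Dusp1 were all higher in replicate 1 than in replicate 2 of the naive group, by 0.28, 0.37, 0.36 and 0.56 on the log2 scale. In the three-week group the same 4 genes were all lower in replicate 1 than in replicate 2, with differences of -0.55, -0.46, -0.43 and -0.69. In the one-week group they did not share a direction, with differences of 0.42, -0.28, -0.05 and 0.10. These 4 genes were picked after the differences had been seen. The other 6 members were higher in replicate 2 of the naive group, and in the three-week group 3 of them were. The sum of the 10 genes was 5281 and 4347 CPM in naive, 4065 and 3843 in one-week and 5104 and 6853 in three-week libraries.

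**Figure D4:**
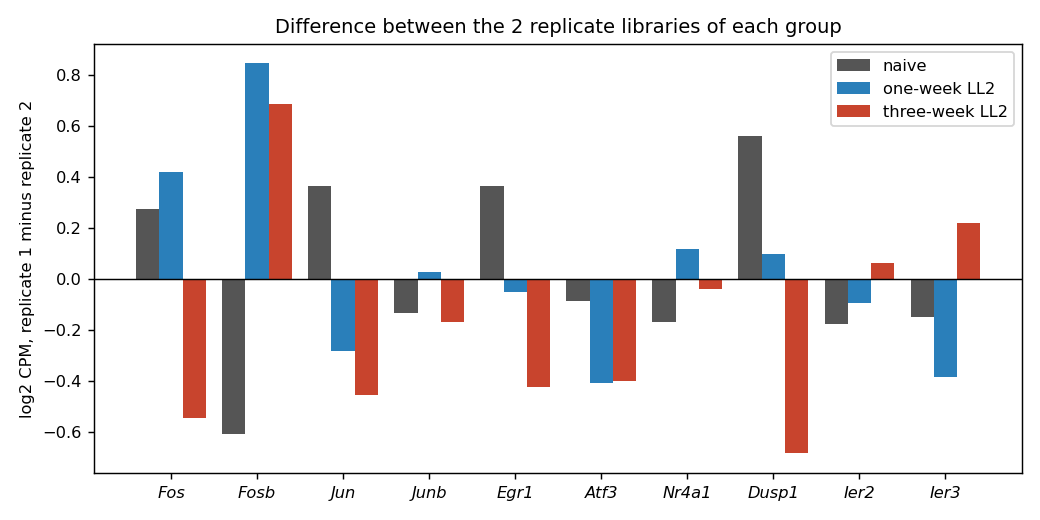
Difference in log2 CPM between replicate 1 and replicate 2 (vertical axis) for each immediate early gene, with 1 bar per group. Fos, Jun, Egr1 and Dusp1 have bars above 0 in the naive group and below 0 in the three-week group, with Dusp1 at 0.56 and -0.69. In the one-week group the bars of Fos and Dusp1 are above 0 and those of Jun and Egr1 below 0.

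Heat shock genes, another group induced by stress to cells, were counted beside them. Of 18 tested genes 1 was lower at 1 week against naive (Dnajb6, a chaperone partner of Hsp70), beside 3.76% of all genes. At 3 weeks against naive 4 were lower (Dnaja1, Dnajb4, Hspa4l and Hspd1), beside 9.42% of all genes. None was higher in these comparisons by edgeR, beside 4.23% and 12.0% of all genes (0 at an unadjusted p under 0.05 and 0 by DESeq2 in each). Between 1 and 3 weeks Dnajb6 rose and Hspa4l fell, beside 12.9% of all genes called higher and 9.57% lower. The 19 genes summed to 1646 and 1400 CPM in naive, 1214 and 1273 in one-week and 1329 and 1383 in three-week libraries. Their sum was higher in naive replicate 1 than in replicate 2, as were Fos, Jun, Egr1 and Dusp1, while the remaining immediate early genes were higher in replicate 2. Hspa1a, the stress-inducible Hsp70, was at 12.8 and 8.68 CPM in naive, 3.00 and 14.4 in one-week and 13.4 and 9.998 in three-week libraries, which overlapped throughout. How handling of the tissue bears on the levels of the immediate early genes was not tested.

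The remaining AP-1 and bZIP genes on the list, 19 of 20 of which were tested, were counted in the same 3 comparisons. Fosl2, a Fos relative, fell 1.58-fold at 1 week against naive (347 and 287 CPM in naive, 207 and 195 at 1 week, adjusted p = 0.00674). Three-week against naive libraries gave 3 that rose and 2 that fell, 5 of 19 beside 21.4% of all genes. Batf, an AP-1 factor best known in lymphocytes, rose 2.04-fold from 1.90 and 2.78 to 4.96 and 4.61 CPM (adjusted p = 0.0393). Atf1, a partner of Creb1, rose 1.51-fold (adjusted p = 0.00348) and Nfil3, a bZIP repressor, 1.47-fold (adjusted p = 0.0133), while Jdp2, a repressor that pairs with Jun, fell 1.56-fold (adjusted p = 0.00289) and Mafg, a small Maf protein, fell 1.3-fold (adjusted p = 0.0334). Between 1 and 3 weeks 6 rose and 1 fell of 19, beside 22.5% of all genes called. Those that rose included Atf5 (1.97-fold, adjusted p = 0.0287), Nfil3 (2.05-fold, adjusted p = 0.000219) and Maff (3.71-fold, at 0.601 to 3.31 CPM in these libraries, adjusted p = 0.0229), and Jdp2 was the gene that fell (1.49-fold, adjusted p = 0.00556).

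Of the other immediate early regulators 43 of 48 were tested. At 1 week against naive 7 fell, Csrnp1, Ets2, Ifrd1, Nfkbia, Per1, Plk3 and Tiparp, beside 3.76% of all genes called lower. None rose by edgeR, beside 4.23% of all genes (2 at an unadjusted p under 0.05, and 0 by DESeq2). The median log2 fold change of the list was -0.16, beside 0.01 over all genes. Per1, a repressor of the circadian clock, fell 2.73-fold (84.0 and 44.3 CPM in naive, 22.0 and 25.1 at 1 week, adjusted p = 0.00279), and Nfkbia, the inhibitor of NF-kB, fell 1.62-fold (adjusted p = 0.0262). Like Dusp1, all of the 7 except Csrnp1 were higher in naive replicate 1 than in replicate 2. Nfkbia was at 724 and 492 CPM there, Ets2 at 302.5 and 212 and Csrnp1 at 120 and 137. Ets2, a transcription factor downstream of Ras, fell 2.08-fold (adjusted p = 0.00175).

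Of the 43, 12 rose and 8 fell at 3 weeks against naive, with a median of 0.02. Over all genes 12.0% were called higher and 9.42% lower in that comparison. Zfp36l1, which codes for a protein that speeds the decay of AU-rich transcripts, rose 3.61-fold (37.4 and 34.6 CPM in naive, 137 and 123 at 3 weeks, adjusted p = 1.4e-06). Cebpb, the bZIP factor of emergency neutrophil production, rose 2.89-fold (373 and 278 CPM in naive, 929 and 953 at 3 weeks, adjusted p = 3.56e-05). Trib1, a pseudokinase that directs C/EBP proteins to degradation, fell 1.76-fold (adjusted p = 0.000283) and Ets2 fell 1.84-fold (adjusted p = 0.00114). Errfi1, a feedback inhibitor of the EGF receptor, rose 2.83-fold from 1.19 and 1.31 to 2.72 and 4.38 CPM (adjusted p = 0.0292). Id3, an inhibitor of E proteins that B-lineage cells also express, fell 6.97-fold, from 3.01 and 3.03 to 0.465 and 0.385 CPM (adjusted p = 0.000741). Between 1 and 3 weeks 16 rose and 5 fell, where 12.9% of all genes were called higher and 9.57% lower. The median was 0.39, beside -0.02 over all genes. The largest rises were those of Errfi1 (5.50-fold, adjusted p = 0.00255), Zfp36l1 (4.93-fold, adjusted p = 3.37e-07) and Id1 (2.73-fold, adjusted p = 2.06e-05), and the largest falls those of Id3 (8.81-fold, adjusted p = 0.000252), Egr2 (2.20-fold, adjusted p = 0.0346) and Rgs2 (1.60-fold, adjusted p = 0.00454).

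Of 11 tested dual-specificity phosphatases other than Dusp1, none was called at 1 week against naive by edgeR, beside 7.99% of all genes (1 lower at an unadjusted p under 0.05, and 0 by DESeq2). Dusp2, an immediate early phosphatase of nuclear MAP kinases, fell 2.21-fold at 3 weeks against naive (45.7 and 35.4 CPM in naive, 16.1 and 20.5 at 3 weeks, adjusted p = 0.000383). Dusp6 and Dusp5, which act on ERK, fell 1.48-fold and 1.40-fold (adjusted p = 0.0295 and 0.0466), and Dusp11 rose 1.33-fold (adjusted p = 0.0324). Between 1 and 3 weeks Dusp2 and Dusp6 fell and Dusp16 rose. Over all genes, 12.0% were called higher and 9.42% lower at 3 weeks against naive, and 12.9% and 9.57% between 1 and 3 weeks.

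Among 32 kinases and promoter factors that act above these genes, 2 fell at 1 week against naive, Map3k1 and Braf, beside 3.76% of all genes. Three-week against naive libraries gave 5 that rose and 1 that fell, and three-week against one-week libraries 8 and 1, of 32 genes in each, beside 21.4% and 22.5% of all genes called. Crtc2, a coactivator of CREB, rose 4.33-fold (3.64 and 3.28 CPM in naive, 12.3 and 17.7 at 3 weeks, adjusted p = 0.000227), and Map3k8, the kinase that starts the ERK cascade below Toll-like receptors, rose 2.28-fold (adjusted p = 0.000264). Mapk13, a p38 kinase, rose 1.61-fold (adjusted p = 0.00102) and Mapkapk3, a kinase below p38, fell 1.35-fold (adjusted p = 0.0348). Of 14 tested primary response cytokines and related genes, 4 rose and 4 fell at 3 weeks against naive, beside 12.0% and 9.42% of all genes. Ccl2, a monocyte chemokine, had the largest fitted rise, 7.26-fold, on few counts, from 0.396 and 0.246 to 1.78 and 3.00 CPM (adjusted p = 0.00665). Cxcl10, an interferon-induced chemokine, had the largest fitted fall, 3.41-fold, from 3.01 and 3.36 to 0.155 and 1.69 CPM (adjusted p = 0.0489). Cxcl2, a neutrophil chemokine, rose 3.04-fold (955 and 665 CPM in naive, 3042 and 1888 at 3 weeks, adjusted p = 0.000189), while Ccl3 fell 2.42-fold (adjusted p = 0.00183) and Ccl4 1.99-fold (adjusted p = 0.000802). Osm, a cytokine of the interleukin 6 family, rose both at 1 week (1.40-fold, adjusted p = 0.0316) and at 3 weeks (1.95-fold, adjusted p = 0.00016) against naive.

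**Figure D5:**
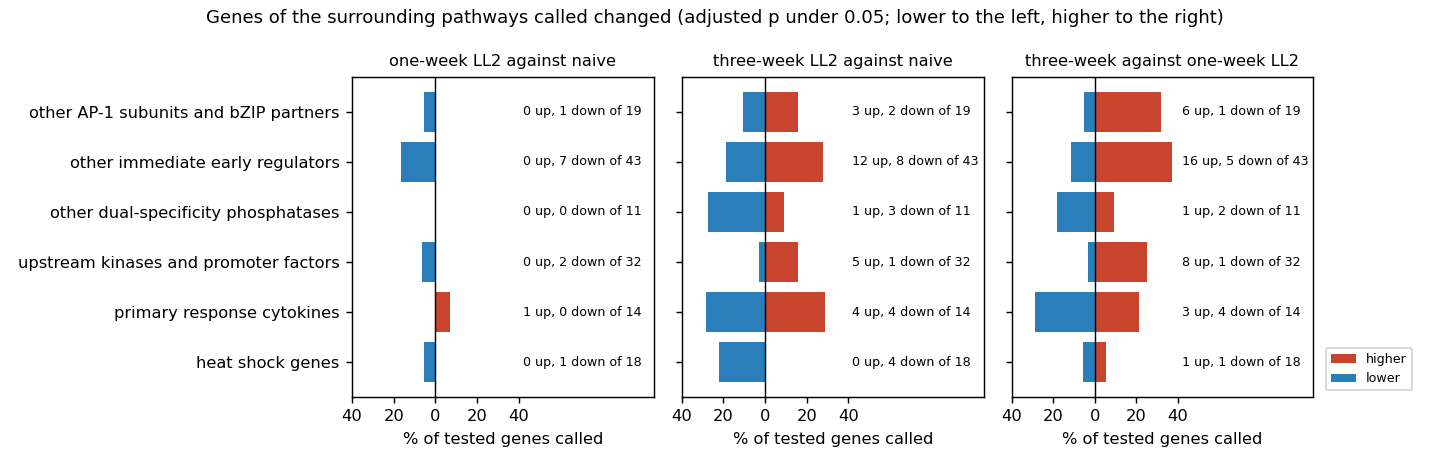
Percent of tested genes called lower (left) and higher (right) in 6 lists of related genes, for the 3 comparisons. Among the other immediate early regulators 7 of 43 fell at 1 week, beside 3.76% of all genes, while 16 of 43 rose between 1 and 3 weeks, beside 12.9%.

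Markers of cell type and maturation were counted in the same 3 comparisons. Over all tested genes, 4.23% were called higher and 3.76% lower at 1 week against naive. At 3 weeks these shares were 12.0% and 9.42% against naive, and 12.9% and 9.57% against 1 week. At 3 weeks against naive all 11 B-lineage markers were lower by edgeR (median log2 fold change -2.44; 9 by DESeq2), and none was called at 1 week against naive (0 at an unadjusted p under 0.05; 0 by DESeq2). Of 9 precursor markers 5 rose at 3 weeks against naive (Ctsg, Elane, Mpo, Ms4a3 and Prtn3, genes of primary granules and their precursors) and 4 fell (Cebpe, Fcnb, Mki67 and Top2a, genes of later precursors and of dividing cells). Of 15 neutrophil markers 2 rose, Cxcr2 and Retnlg, and 3 fell, the secondary granule genes Camp, Ltf and Ngp. Cxcr2, the chemokine receptor of mature neutrophils, rose 1.62-fold (adjusted p = 0.00288). The rest of that list, among them Lcn2, Mmp8 and Mmp9, were not called (adjusted p = 0.846, 0.711 and 0.201 for these). Of 13 monocyte markers 2 rose and 2 fell, and of 6 megakaryocyte and platelet markers 4 fell. Of 10 erythroid markers 2 fell, of 4 T and NK markers 1 rose and 1 fell, and of 8 eosinophil, basophil and mast cell markers 2 fell. Against naive at 1 week, Cpa3, Mcpt8 and Prg2, genes of mast cells, basophils and eosinophils, were higher, as was the neutrophil gene Retnlg, while Irf8 and Siglech of the monocyte list, Itga2b and Treml1 of the platelet list and Top2a were lower. Three-week libraries had all 11 B-lineage markers lower than one-week libraries (median -2.08, 9 by DESeq2), and the same comparison called 5 precursor markers higher and 4 lower, 6 of 15 neutrophil markers higher and 3 lower, and 2 of 8 eosinophil, basophil and mast cell markers higher and 4 lower. It also called 2 monocyte markers higher and 2 lower, and 3 erythroid, 1 platelet and 1 T and NK marker lower. The part of these shifts in the levels of the immediate early genes was not tested.

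By the mean absolute difference between log2 CPM values centred on each gene's own mean over the 6 libraries, the gene closest to Fos was Cdc25c, at 0.04, followed by Dpy30, Stk26, Zfp444, Ptgr1, Cep55, Fam107b, Gadd45a, Tmem38b and Ckap2, at 0.05 to 0.08. The median over all 12258 other tested genes was 0.31. Cdc25c was at 1.16 to 2.00 CPM and Zfp444 at 2.56 to 4.14, so few counts stood behind their places. Gadd45a was at 101 and 104 CPM in naive, 143 and 105.5 in one-week and 95.7 and 126 in three-week libraries. Among the members Egr1 was closest to Fos at 0.12 (place 85), then Ier2 at 0.26, and the other 7 lay at 0.40 to 0.71, above the median of all genes. Jun and Atf3 were the farthest, at 0.62 and 0.71.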

How the data were processed

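Total RNA from Ly6G+ bone marrow cells was sequenced in 6 libraries, 2 per group. The authors deposited expected counts per Ensembl gene, estimated by RSEM on mm10; the submitters' processing notes name RSEM 1.2.31, and the methods another version. Read length also differed between the labels and the methods. Symbols and exon lengths came from GENCODE M21 (GRCm38), which matched 37570 of 38887 identifiers.

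The counts were tested as deposited with edgeR 4.0.16 (R 4.3.3, filterByExpr, TMM scaling, quasi-likelihood F test) in 1 model of all 6 libraries. Benjamini-Hochberg adjustment was made over 12259 genes at 0.05. CPM values are TMM-scaled. DESeq2 1.42.0, other scalings and filters, the 2 groups alone, a replicate block and each library left out were alternatives. The procedure was tested on simulated data for the three-week against naive comparison only, with the spread of each gene taken from these libraries. Deviations of same-numbered libraries correlated at 0.01, 0.04 and 0.04, so the numbers were not used as pairs. Limits of detection cover counting error only. The members and gene lists were chosen with earlier results of these data known. Genes set to be named were the 10 members, the 3 largest rises and falls per list and comparison among called genes without overlap, and the 10 genes nearest to Fos. Not all of them are described, and which were, and any other gene named, was chosen after their values were seen. Promoter sequences were RefSeq's (GRCm38.p6).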

Additional observations from a re-analysis of the deposited data

How the results depend on the processing

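With 2 libraries per group the calls near the threshold depended on single libraries. Of the 10 genes, 2 were called at 1 week against naive, but 1 by DESeq2 (Junb) and 0 to 2 when 1 library was left out, and 0 without naive replicate 1, one-week replicate 1 or one-week replicate 2. The replicate numbers did not pair the libraries, and with a replicate block 1 gene was called in that comparison (Dusp1), Junb missing the threshold (adjusted p = 0.0544). The cause of these changes was not tested. The counts of 5 and 6 genes at 3 weeks stayed within 1.5 times under each alternative. Over the 13 alternatives, 340 gene values kept direction and side of the threshold, 16 lost a call, 10 gained one and 24 changed sign. At 1 week against naive Egr1 became -0.0056 by DESeq2 and -0.0023 with its size factors, and Ier3 became -0.023, -0.019 and, with the block, -0.0029. At 3 weeks against naive Ier2 became -0.082 with library-size scaling and Fos 0.0039 with the block. Leaving out 1 library, the log2 fold changes at 1 week against naive ranged from -0.010 to 0.41 for Fos, -0.37 to 0.48 for Fosb, -0.15 to 0.21 for Egr1 and -0.21 to 0.18 for Ier3. At 3 weeks against naive they ranged from -0.30 to 0.26 for Fos, -0.29 to 0.14 for Egr1, -0.054 to 0.16 for Ier2 and -0.092 to 0.60 for Dusp1, and at 3 weeks against 1 week from -0.51 to 0.040 for Fos and -0.30 to 0.13 for Egr1. Fosb passed the threshold at 3 weeks against naive without the filter on low counts (-0.68, adjusted p = 0.000259) and without three-week replicate 1 or one-week replicate 2 (-1.03 and -0.68), and at 3 weeks against 1 week in those settings and with library-size scaling, which also brought Nr4a1 at 1 week (0.45) and Ier2 between 1 and 3 weeks (-0.39) past it. Fosb was however -0.31 at 3 weeks against naive without naive replicate 2 (adjusted p = 0.591) and -0.31 against 1 week without one-week replicate 1 (adjusted p = 0.513). Over all genes, 979 were called at 1 week against naive, 1537 without the filter and 147 to 1145 with 1 library left out. Scaling by library size alone moved the median log2 fold change of all genes to 0.07, -0.11 and -0.22 in the 3 comparisons, and the share of calls that were higher from 52.9%, 56.0% and 57.5% to 68.6%, 34.7% and 28.6%.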
